A study of Mus musculus with 4 samples.

Results

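Genes named Zfp followed by a number were followed across mouse embryonic stem (ES) cells and extraembryonic endoderm (XEN) cells. Members were the genes whose probe set carries a single annotated symbol of the form Zfp and a digit, with Zfp42 left out. This gave 88 of the 8251 genes on the array, measured by 115 probe sets. A gene with several probe sets was represented by the probe set with the highest mean signal over the 4 arrays. ES is represented by a single culture, R1 cells kept undifferentiated with LIF on gelatin. XEN is represented by 3 cultures of 2 lines. The line IM8A1 (PO strain, passage 27) gave IM8A1-I, grown in 70% EMFI-CM over gelatin, and IM8A1-II, kept 4 days on culture plastic in RPMI 1640 plus 20% FBS. The line XEN1-3 (ICR strain, passage 18) was on gelatin in the same 70% EMFI-CM. XEN values are given below in the order IM8A1-I, IM8A1-II, XEN1-3. The labels give no treatment or engineered allele. Total RNA of each culture was hybridised to 1 Affymetrix MG_U74Av2 array.

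Most Zfp proteins carry arrays of C2H2 zinc fingers, small folds in which cysteines and histidines hold a zinc ion and which read DNA sequence. Many of them join the fingers to a KRAB domain, which recruits the corepressor Trim28 and, with it, the histone methyltransferase Setdb1 and heterochromatin proteins that silence transposons and imprinted regions in early embryos and ES cells. The name is not a family in the strict sense: Zfp36, Zfp36l1 and Zfp36l2 carry CCCH fingers that bind AU-rich RNA, Zfp185 is a LIM domain protein, and Zfp91 and Zfp598 act as ubiquitin ligases.

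Signal is in arbitrary units, and a signal of 27.3 units (the 40th percentile of all values) was taken as the background limit. ES markers stood at 3191 (Pou5f1), 3391 (Sox2) and 3275 units (Nanog) in ES and at no more than 22.7 in any XEN array, and all 5 XEN markers (Gata4, Gata6, Sox7, Sox17, Foxa2) rose. The summed signal of 15 fibroblast or feeder genes was 1287 in ES and 831 to 969 in XEN, that of 6 trophoblast genes 911 and 75.4 to 113. Of the 11 tested fibroblast genes 1 fell (Thy1, 48.5 in ES and 3.00 to 5.80 in XEN) and 10 did not pass, among them genes with higher values in XEN, such as Col1a2 (206 and 352 to 403) and Twist2 (22.0 and 39.8 to 151). Of the 4 tested trophoblast genes 1 fell (Tfap2c, 767 and 10.8 to 14.8). None of these defining genes was listed at 0. Of 5 tested germ layer genes none passed, 2 being below ES by unadjusted p under 0.05, and their list summed to 316 in ES and 183 to 415 in XEN. The part of these cells in the differences of Zfp genes was not tested. The ES array came from another chip lot than the XEN arrays. The ES culture also differs from the XEN cultures in line and in labelled culture condition. Differences of lot, line, culture and cell type therefore cannot be told apart. The run record of XEN1-3 holds a message that no fluid was detected. In whole cultures fewer cells of a type and less RNA per cell cannot be told apart.

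Of the 88 Zfp genes, 73 reached the background limit on at least 1 array and were tested, 83.0% against 76.9% of all genes on the array, and 57 reached it on all 4 arrays. At or above the limit were 63 genes in ES and 65, 64 and 68 in the XEN arrays. The 15 genes under the limit on every array had no value over 27.1 units. They include Zfp354a, Zfp37, Zfp59, Zfp60, Zfp503 and Zfp185. The median Zfp signal was 63.9 units in ES and 68.1, 57.2 and 62.9 in the XEN arrays, against 74.6, 75.2, 79.2 and 78.3 over all genes on the array. At the bright end they were fewer: 5.68% of the Zfp genes and 12% of all genes reached 500 units in ES, and 4.55% and 11.5% in IM8A1-I. Signals of different probe sets are no measure of relative transcript number, so these figures describe the arrays and not an order of genes.

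XEN was set against ES to ask which Zfp transcripts differ between the XEN arrays and the ES array. Zfp982 and Zfp97 fell and Zfp637 rose, and the other 70 tested genes did not pass the threshold (limma, Benjamini-Hochberg adjusted p under 0.05 over 8582 probe sets). The share called was thus 4.11% of the tested Zfp genes, 1.37% higher and 2.74% lower. Over all 6345 genes tested, 1 probe set each, it was 11.1% in either direction, 5.75% higher and 5.37% lower, and over the 8582 probe sets 10.6%, 5.58% and 5.05%. At an unadjusted p under 0.05, 5 Zfp genes stood above ES and 10 below, against 14.9% and 15.2% of all genes. The counts of Zfp genes changed when any 1 XEN array was left out, which also lowers the residual degrees of freedom from 2 to 1. Without IM8A1-I 0 were higher and 1 lower, without IM8A1-II 0 and 0, and without XEN1-3 3 and 4. The share of all probe sets called moved in the same fits, from 10.6% to 4.26%, 5.17% and 17.3%.

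Promoter sequence is shown for the 3 genes past the threshold and for Zfp57 and Zfp105, which were at least 2-fold lower in all 3 XEN arrays. Each sequence is the 250 bases before a transcript start of the RefSeq promoter table, the most upstream where it lists several, 5′ to 3′ on GRCm38.p6. The windows of Zfp97 and Zfp637 lie inside the RefSeq spans of these genes, and that of Zfp105 runs past the start of its span. Capitals mark matches, on either strand, to any of 5 motifs, none of which contains another. The octamer read by POU factors was searched as ATGCAAAT. The site of GATA factors was searched as AGATAA. The CCAAT box was searched by the letters of its name. The core promoter box bound by TBP was searched as TATAAA. The GC box bound by Sp1 was searched as GGGCGG.
Zfp982, chr4:147442864-147443113, plus strand: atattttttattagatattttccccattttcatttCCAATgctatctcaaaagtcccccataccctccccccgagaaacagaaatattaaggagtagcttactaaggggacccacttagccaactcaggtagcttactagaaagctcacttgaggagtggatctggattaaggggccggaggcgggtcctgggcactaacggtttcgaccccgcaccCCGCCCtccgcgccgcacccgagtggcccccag
Zfp97, chr17:17121133-17121382, plus strand: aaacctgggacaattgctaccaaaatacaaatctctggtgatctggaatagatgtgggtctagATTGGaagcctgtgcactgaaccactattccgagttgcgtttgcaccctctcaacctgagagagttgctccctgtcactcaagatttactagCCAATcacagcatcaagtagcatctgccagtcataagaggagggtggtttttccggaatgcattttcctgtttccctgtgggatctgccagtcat
Zfp637, chr6:117840931-117841180, plus strand: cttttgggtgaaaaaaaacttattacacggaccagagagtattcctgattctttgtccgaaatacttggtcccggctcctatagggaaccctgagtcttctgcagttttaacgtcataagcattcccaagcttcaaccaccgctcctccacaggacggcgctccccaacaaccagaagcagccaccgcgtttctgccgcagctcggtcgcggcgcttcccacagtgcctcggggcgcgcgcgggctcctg
Zfp57, chr17:37000913-37001162, plus strand: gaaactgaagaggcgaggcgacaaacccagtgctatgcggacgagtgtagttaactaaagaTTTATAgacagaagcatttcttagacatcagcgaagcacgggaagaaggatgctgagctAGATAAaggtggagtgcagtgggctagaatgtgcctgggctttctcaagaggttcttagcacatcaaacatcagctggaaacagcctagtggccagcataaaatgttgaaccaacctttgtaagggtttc
Zfp105, chr9:122922828-122923077, plus strand: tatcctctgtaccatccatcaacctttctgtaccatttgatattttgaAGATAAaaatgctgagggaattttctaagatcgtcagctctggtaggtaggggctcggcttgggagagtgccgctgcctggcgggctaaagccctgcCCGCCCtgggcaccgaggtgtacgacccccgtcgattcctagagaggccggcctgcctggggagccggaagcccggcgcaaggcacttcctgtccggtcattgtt

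Zfp982, on chromosome 4 (147443114 to 147516064, GRCm38.p6), lies in a dense array of related genes. All 5 protein-coding genes within 200 kb of it are also Zfp genes (Zfp978, Zfp988, Zfp985, Zfp979 and Zfp534), and none of them has a probe set of its own among the named ones. It stood at 949 units in ES and at 90.4, 61.6 and 12.3 units in XEN. ES was high and all 3 XEN arrays were low, XEN1-3 below the background limit. ES exceeded IM8A1-I by 10.5-fold and IM8A1-II by 15.4-fold, and no exact fold is given for XEN1-3. The mean XEN signal was 54.8 ± 39.5 (SD, n = 3), and the difference was -4.13 ± 0.81 on the log2(signal + 10.5) scale (SE, limma adjusted p = 0.0339), the largest of any tested Zfp gene in size. Over its alternatives the adjusted p ran from 0.00216 (XEN1-3 left out) to 0.0986 (values raised to the background limit). It was also over 0.05 with no filter on dim probe sets (0.0625) and with IM8A1-II left out (0.0627). Its promoter window holds 1 CCAAT box and 1 GC box.

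Zfp97, on chromosome 17 (17121108 to 17147138), stood at 220 units in ES and at 51.0, 63.9 and 56.7 units in the XEN arrays in the same order. The 3 XEN values lay close together and apart from ES, by 4.31-fold, 3.44-fold and 3.88-fold. The XEN mean was 57.2 ± 6.47, and the difference was -1.77 ± 0.28 in log2 (limma adjusted p = 0.0206). The call was lost when IM8A1-I (adjusted p = 0.0628) or IM8A1-II (0.0507) was left out. A probe set annotated to both Zfp97 and its neighbour Zfp960, and so not counted here, fell as well, from 1294 to 212, 236 and 258 units. The promoter window of Zfp97 holds 2 CCAAT boxes and 3 CG pairs.

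The probe sets of Zfp982 and Zfp97 both end in f, the array maker's mark for probes that match a family of similar sequences. The genes behind these signals are therefore uncertain within their families. Of the 88 representative probe sets 8 are of this kind, and all 8 were tested. The others are those of Zfp51, Zfp53, Zfp771, Zfp787, Zfp930 and Zfp932.

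Zfp637 was the Zfp gene that rose. On chromosome 6 (117840588 to 117845957), it stood at 40.8 units in ES and at 112, 131 and 121 units in XEN. The XEN arrays were alike and all above ES, by 2.75-fold, 3.20-fold and 2.96-fold. The XEN mean was 121 ± 9.31, and the difference was 1.36 ± 0.27 in log2 (limma adjusted p = 0.0350). Leaving out IM8A1-I (adjusted p = 0.0880) or IM8A1-II (0.0963) ended the call, as did counting each line as 1 sample (0.0602) and testing with no filter (0.0636). Zfp239, the next Zfp gene on the chromosome, stood at 66.7 in ES and 84.8 to 94.6 in XEN and did not pass (0.36 in log2, adjusted p = 0.423). The promoter window of Zfp637 holds none of the 5 motifs and 19 CG pairs.

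**Figure D1:**
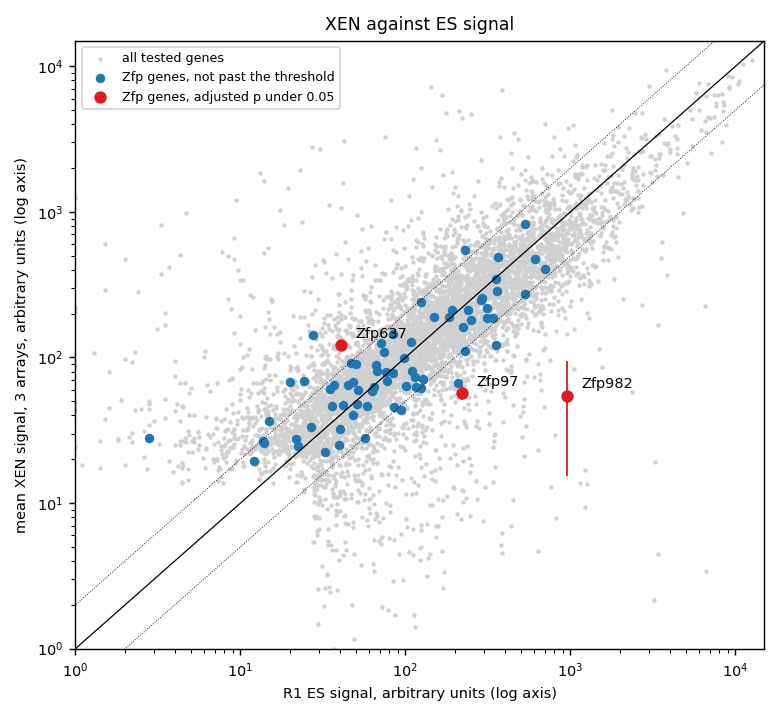
Signal in R1 ES (horizontal) against the mean signal of the 3 XEN arrays (vertical), both in arbitrary units on log axes, for all tested genes (grey) and tested Zfp genes (blue, red where past the threshold, with SD bars over the 3 XEN arrays). The solid line marks equal signal, the dotted lines 2-fold, and values under 1 unit are drawn at 1; most Zfp genes lie between the dotted lines, and Zfp982 lies farthest from the solid line, at 949 against 54.8 units.

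Most Zfp genes stayed near their ES signal. In 47 of the 73 tested genes, or 64.4%, all 3 XEN arrays lay within 2-fold of ES on the log2(signal + 10.5) scale, against 59.1% of all tested genes. At least 2-fold higher in all 3 XEN arrays were 2 Zfp genes (2.74%, against 8.10% of all genes), Zfp637 and Zfp276. At least 2-fold lower were 4 (5.48%, against 8.12%), Zfp982, Zfp97, Zfp57 and Zfp105. The median difference over the tested Zfp genes was -0.05 in log2, and 0.03 over all tested genes. The middle 50% of the Zfp genes lay between -0.50 and 0.36, and 36 were above and 37 below 0. Taken array by array the median was -0.02, -0.14 and 0.01, so its sign differed between the XEN arrays.

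**Figure D2:**
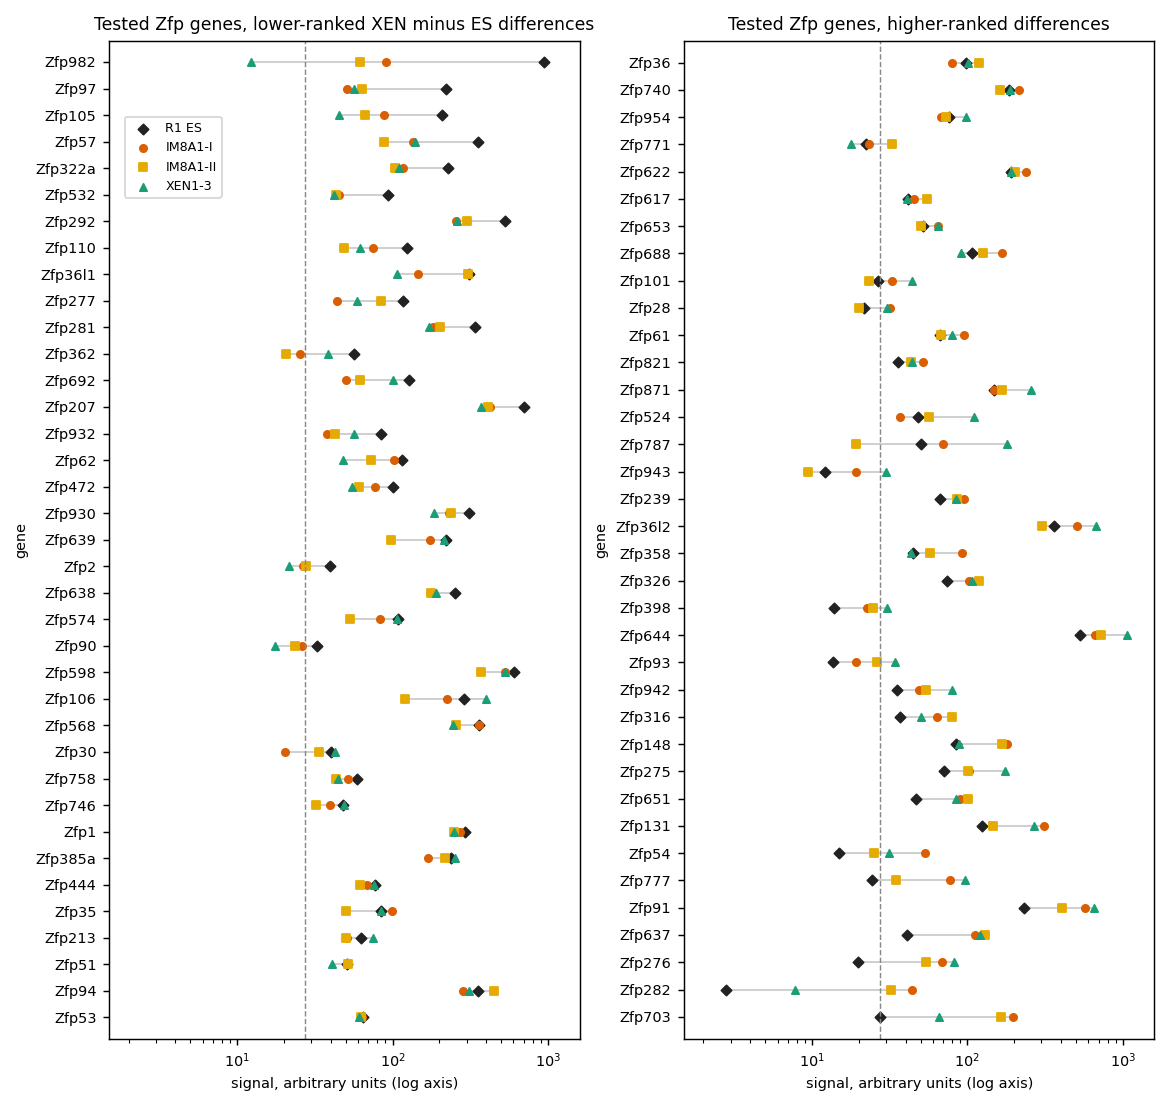
Signal of the 73 tested Zfp genes on each of the 4 arrays, in arbitrary units on a log axis, ordered by the XEN minus ES difference from Zfp982 (top left) to Zfp703 (bottom right). The dashed line is the background limit of 27.3 units; in the first rows of the left panel the ES symbol lies to the right of all 3 XEN symbols, and in the last rows of the right panel to the left of them.

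Among the Zfp genes that did not pass, several had ES outside the XEN values. Zfp276 stood at 19.9 units in ES, below the limit, and at 68.7, 54.2 and 82.1 in the XEN arrays. All 3 XEN arrays were above the limit. Their geometric mean was 2.47-fold the limit, and so at least 2.47-fold the ES signal (1.36 ± 0.33 in log2, limma adjusted p = 0.0581). Zfp105, described in testis and male germ cells, stood at 207 units in ES and at 88.5, 66.0 and 45.0 in XEN (-1.54 ± 0.39, adjusted p = 0.0617). Its XEN values were all low but spread about 2-fold among themselves. Both genes fall outside the naming rule and were picked after their values were seen. With XEN1-3 left out, or with the median signal as offset, Zfp105 passed.

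Zfp703, a corepressor of the Nlz family, had the highest positive difference, 1.88 ± 0.59, yet did not pass (limma adjusted p = 0.0992). It stood at 27.5 units in ES, just over the background limit, and at 198, 164 and 65.4 in XEN. Both IM8A1 cultures were high and XEN1-3 lay between them and ES. Zfp282 was above the background limit in the IM8A1 cultures, at 43.9 and 32.2 units, and under it in ES (2.80) and XEN1-3 (7.80), which are not ranked against each other (1.39 ± 0.67, adjusted p = 0.229). Without XEN1-3, which leaves the IM8A1 line alone, Zfp703 and Zfp282 passed as higher (adjusted p of 0.00586 and 0.0326). Zfp503, the partner of Zfp703 in the Nlz family, was under the limit on every array.

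A list drawn up for zinc finger regulators of the ES cell network and of chromatin held 16 genes, among them Zfp207 and Zfp106, described below by other roles. Of the 16 genes, 7 are on the array as single-symbol genes, all of them tested. None passed in limma's test, although 5 lay below ES, and 0 above, by an unadjusted p under 0.05, which 15.2% and 14.9% of all tested genes reached. The median difference of the list was -0.83 in log2, beside 0.03 over all tested genes. The list was put together with earlier results of these data known.

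Zfp57, the KRAB protein that keeps DNA methylation at imprinted regions, stood at 353 units in ES and at 136, 87.5 and 139 in XEN. Every XEN array was below ES by more than 2-fold, and the difference was -1.49 ± 0.35 (limma adjusted p = 0.0518). Over its alternatives the adjusted p ran from 0.0271 (XEN1-3 left out) to 0.123 (values raised to the limit). It was under 0.05 also with the median signal as offset (0.0451), median scaling (0.0493) and a filter at the 60th percentile (0.0448), and over it in the others, among them no filter (0.0778). Its promoter window holds 1 GATA site and 1 TATA box. Zfp57 lies on chromosome 17 (37001163 to 37010729) among olfactory receptor genes, with no Zfp gene within 200 kb. Of its neighbours on the array, Gabbr1, Olfr93, Olfr94 and Znrd1 were tested and did not pass.

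Zfp322a, a factor that sustains pluripotency genes in ES cells, stood at 229 units in ES and at 117, 104 and 110 in XEN (-0.98 ± 0.26, adjusted p = 0.0711). Zfp281, which binds GC-rich promoters and restrains Nanog, stood at 339 and at 183, 202 and 173 (-0.83 ± 0.27, adjusted p = 0.105). Zfp292, a very long multi-finger protein, stood at 534 and at 258, 302 and 259 (-0.95 ± 0.27, adjusted p = 0.0805). In these 3 genes the XEN arrays were alike and ES lay above all of them. Its second tested probe set gave Zfp292 -0.78 in log2.

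Zfp207 (BuGZ), which loads the checkpoint protein Bub3 on kinetochores, stood at 705 units in ES and at 425, 413 and 373 in XEN (-0.79 ± 0.26, adjusted p = 0.111). Zfp148, a factor that binds GC-rich promoters, went the other way in part. It stood at 83.9 in ES, 180 and 168 in the IM8A1 cultures and 88.9 in XEN1-3, so that XEN1-3 and ES were alike (0.67 ± 0.44, adjusted p = 0.356). Zfp106, an RNA-binding protein needed by motor neurons, stood at 289 in ES and at 224, 121 and 400 in XEN, where ES lay inside the XEN range (-0.36 in log2).

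The RNA-binding members work apart from DNA. Zfp36 (tristetraprolin), Zfp36l1 and Zfp36l2 bind AU-rich elements of messenger RNAs and recruit deadenylases that start their decay. None of the 3 passed, and none was at an unadjusted p under 0.05. Zfp36 stood at 98.1 units in ES and at 79.8, 118 and 101 in XEN, so ES lay inside the XEN range (0.01 in log2, negative with median scaling and with quantile normalization). Zfp36l2 stood at 362 in ES and at 508, 301 and 670 in XEN (0.36 in log2, adjusted p = 0.641). Zfp36l1 stood at 312 in ES and at 147, 308 and 107 in XEN. IM8A1-II matched ES, and the cultures on gelatin in EMFI-CM were both lower (-0.84 in log2, adjusted p = 0.37).

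**Figure D3:**
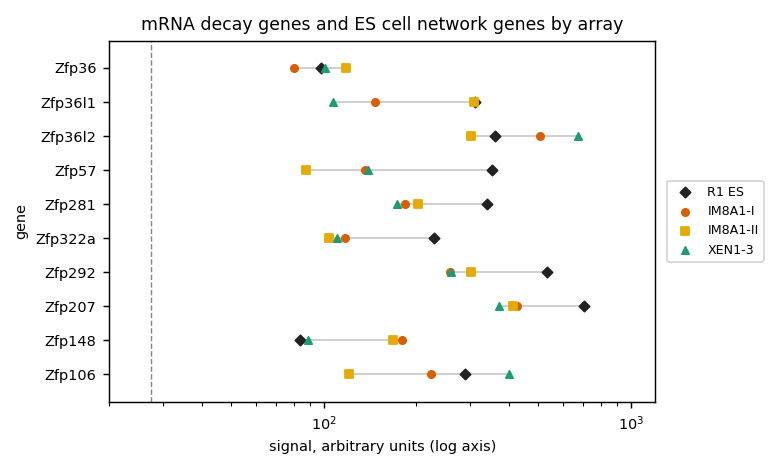
Signal of the 3 mRNA decay genes (top) and the 7 tested genes of the ES cell network and chromatin list on each of the 4 arrays, in arbitrary units on a log axis, with the background limit of 27.3 units dashed. ES lies to the right of all 3 XEN symbols for Zfp57, Zfp281, Zfp322a, Zfp292 and Zfp207, and within the XEN values for Zfp36, Zfp36l2 and Zfp106. For Zfp36l1 ES (312 units) also lies to the right, barely beyond IM8A1-II (308). For Zfp148 ES (83.9) lies to the left, close to XEN1-3 (88.9).

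The genes around these decay factors were read from 2 further lists. Of 18 tested genes of mRNA deadenylation and decay, 1 rose, 0 fell and 17 did not pass in limma's test. By unadjusted p under 0.05, 4 were above ES and 3 below, as were 14.9% and 15.2% of all tested genes. The 1 riser is 5.56% of the list, beside 5.75% of all tested genes. The riser was Btg1, an antiproliferative partner of the deadenylase complex, from 217 units to 731, 600 and 1043 (1.78 ± 0.37, adjusted p = 0.0392, and 0.0937 without IM8A1-I, 0.0538 without IM8A1-II). With no filter, with values raised to the limit and with each line as 1 sample, 0 genes of the list rose. Of 17 transcripts known as targets of the Zfp36 family, 10 were tested, 1 rose, 2 fell and 7 did not pass, where 5.75% of all tested genes rose and 5.37% fell. The urokinase receptor gene Plaur rose from 43.2 to 235, 238 and 246 units (2.22 ± 0.26, adjusted p = 0.00946). Cyclin D1 (Ccnd1) fell from 279 to 28.5, 22.9 and 46.5 (-2.78 ± 0.39, adjusted p = 0.0144), and the survival factor Mcl1 from 957 to 336, 332 and 311 (-1.52 ± 0.26, adjusted p = 0.0234). Without IM8A1-I or IM8A1-II Mcl1 did not pass (0.0739 and 0.0639). The inflammatory targets Tnf, Il6, Csf2, Cxcl1 and Ptgs2 were under the limit on every array. The cytokine gene Il3 of the same list was tested and did not pass, at 14.8 units in ES and 43.8, 21.8 and 39.0 in XEN.

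The brightest probe set among the Zfp genes was that of Zfp644, a partner of the G9a and GLP histone methyltransferases. It stood at 533 units in ES and at 661, 726 and 1073 in XEN, all above ES (0.58 in log2, adjusted p = 0.325). Zfp91, which attaches ubiquitin chains to NF-kappaB inducing kinase, stood at 231 in ES and at 569, 407 and 657 in XEN (1.17 ± 0.35, adjusted p = 0.0870). Its second tested probe set also had ES lowest, with 0.78 in log2. Zfp598, the ubiquitin ligase that marks collided ribosomes, stood at 609 in ES and at 529, 370 and 530 (-0.37 in log2). Zfp568, a KRAB repressor of a placental Igf2 transcript, stood at 359 in ES and at 361, 257 and 243 in XEN. IM8A1-I matched ES, and the other cultures lay lower. Zfp94 stood at 356 in ES and at 283, 452 and 310, ES inside the XEN range (-0.06 in log2). Zfp94 and Zfp568 each have another probe set that was under the background limit on every array. These read 4.8 to 16.7 units for Zfp94 and 14.5 to 20.9 for Zfp568, so the bright signal of each gene rests on a single probe set.

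Of the 22 Zfp genes with more than 1 probe set, 13 had at least 2 that were tested. No 2 tested probe sets of a gene were 2-fold apart in their XEN minus ES difference. Probe sets under the limit on every array are outside this comparison, also where another probe set of the gene was bright. Such were probe sets of Zfp91 (0.7 to 3.7 units), Zfp36l2 (1.5 to 3.6) and Zfp106 (2.4 to 6), among others. In 5 genes the tested probe sets differed in sign: Zfp106, Zfp277, Zfp574, Zfp61 and Zfp930. The widest gap was that of Zfp277, with -0.84 and 0.07 in log2.

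The KRAB proteins act through Trim28, and 4 genes of this silencing machinery fell in XEN. Of 12 tested genes of a corepressor and heterochromatin list 4 fell, 0 rose and 8 did not pass, 33.3% against a background of 5.37%, with a median of -0.87 in log2. This list was put together with earlier results of these data known, so its share does not measure an enrichment. Trim28 fell from 7092 units to 2696, 2063 and 2813 (-1.5 ± 0.28, limma adjusted p = 0.0312) and Setdb1, which methylates lysine 9 of histone H3, from 434 to 151, 198 and 171 (-1.28 ± 0.29, adjusted p = 0.0463). The heterochromatin protein gene Cbx1 fell from 301 to 84.5, 112 and 80.2 (-1.61 ± 0.30, adjusted p = 0.0311) and the deacetylase gene Hdac1 from 383 to 118, 136 and 119 (-1.55 ± 0.27, adjusted p = 0.0249). In all 4 genes every XEN array was below ES by 2-fold or more. The calls were few without IM8A1-I (0 lower) and without IM8A1-II (1 lower), and 4 without XEN1-3. With values raised to the background limit 1 was lower, and with no filter 1. The maintenance methyltransferase Dnmt1 stood at 784 and 511 to 615 without passing (-0.52 in log2, adjusted p = 0.261).

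**Figure D4:**
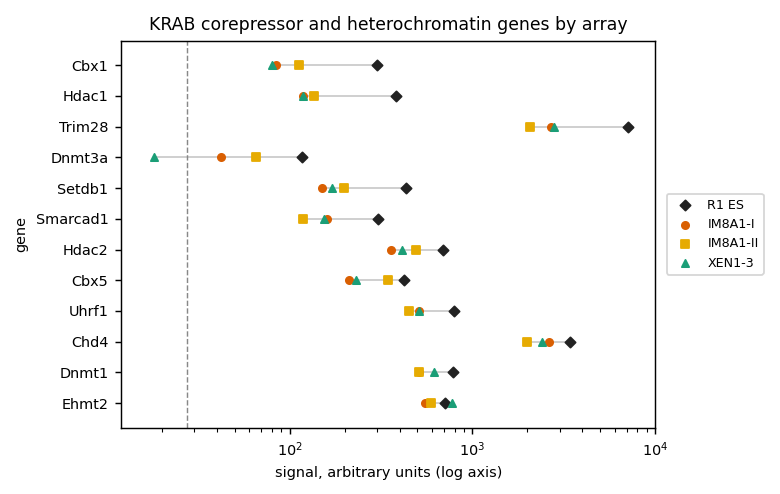
Signal of the 12 tested genes of the KRAB corepressor and heterochromatin list on each of the 4 arrays, in arbitrary units on a log axis, ordered by the XEN minus ES difference with the lowest at the top and the background limit of 27.3 units dashed. ES lies to the right of all 3 XEN symbols in every row but that of Ehmt2, where XEN1-3 (770.0 units) lies beyond ES (707).

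Zinc finger genes of other names were set beside the Zfp genes. Of 57 such C2H2 genes on the array 44 were tested, and 3 rose, 4 fell and 37 did not pass, 6.82% and 9.09%, beside 1.37% and 2.74% of the Zfp genes and 5.75% and 5.37% of all tested genes. The differences between these shares were not tested. The risers were the GATA cofactor gene Zfpm1, Zfhx3 and the imprinted gene Plagl1. Those that fell were Rest, which represses neuronal genes, the Hedgehog effectors Gli1 and Gli2, and Zbtb17 (Miz-1), the last from 119 units to below the limit on each XEN array, at least 4.36-fold lower (limma adjusted p = 0.0159). Without IM8A1-I 0 of these genes were higher and 2 lower, and without IM8A1-II 2 and 2. The counts were 0 higher and 4 lower when values were raised to the limit, and 3 and 2 with no filter.

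The 2 IM8A1 cultures, the same line in different media and on different surfaces, were compared array against array, without a test. Folds were counted on the log2(signal + 10.5) scale, which makes the folds of dim genes smaller than in raw signal. Among the 73 tested Zfp genes 1 was at least 2-fold higher in IM8A1-II (1.37%, against 3.36% of all genes) and 2 were at least 2-fold lower (2.74%, against 2.60%). The higher one was Zfp36l1, at 1.02 in log2. Lower were Zfp787, at 69.5 units in IM8A1-I and 19.2 in IM8A1-II, and Zfp131, at 311 and 146, a BTB zinc finger protein. Zfp777 (77.4 and 34.5), Zfp54 (53.3 and 24.9), both more than 2-fold lower in raw signal only, and Zfp35 (98.9 and 50.2) followed on the lower side, and Zfp277 (44.1 and 84.3), Zfp94, Zfp30 (20.2 and 33.6) and Zfp36 on the higher side. The lower values of Zfp787 and Zfp54 and that of Zfp30 in IM8A1-I are under the background limit. Each of these rests on 1 array a condition.

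XEN1-3 was set against IM8A1-I, a different line in the same labelled medium, in the same way and on the same log2 scale. The comparison shares the IM8A1-I array with the one above. At least 2-fold higher were 2 Zfp genes (2.74%, against 4.37% of all genes) and at least 2-fold lower 3 (4.11%, against 4.41%). Higher were Zfp524, at 36.9 units in IM8A1-I and 111 in XEN1-3, and Zfp787, at 69.5 and 180. Lower were Zfp982, Zfp282 and Zfp703, whose values are given above, the first and second of them under the background limit in XEN1-3. Zfp787 had the widest swing among the XEN arrays, with 69.5, 19.2 and 180 units around 50.3 in ES, on a probe set of the f kind. Its second tested probe set stood at 36.1 in ES and at 64.4, 38.5 and 36.2 in XEN. Zfp692 (50.4 and 100) and Zfp106 followed on the higher side, Zfp62 (102 and 47.8) and Zfp148 on the lower side, both more than 2-fold lower in raw signal only. Over the 57 Zfp genes at the limit on all arrays the median coefficient of variation among the XEN arrays was 21.2%, beside 18.4% over 4911 genes.

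**Figure D5:**
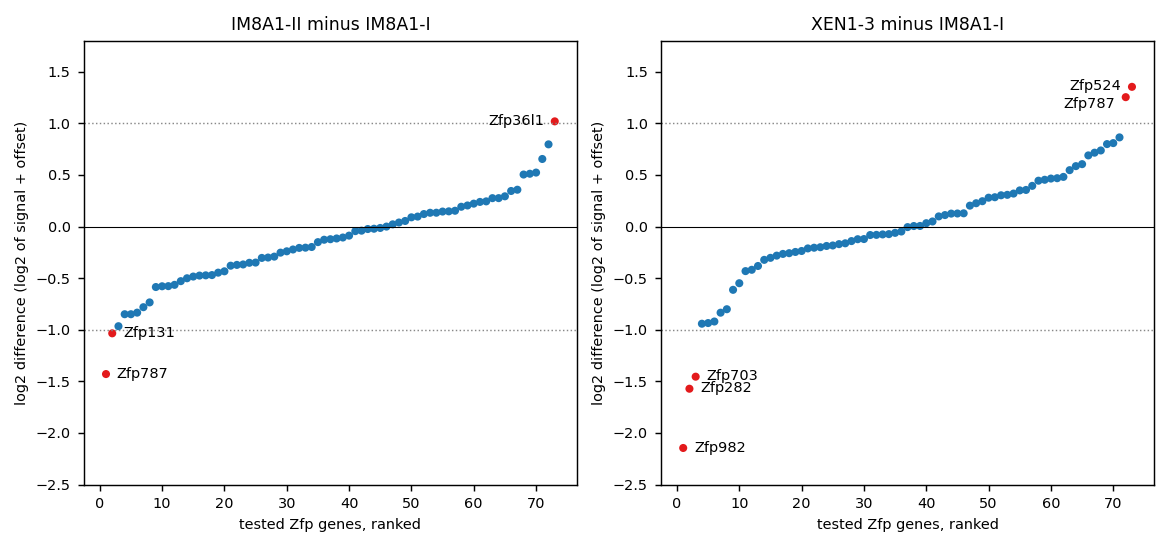
Difference of each tested Zfp gene, ranked, between IM8A1-II and IM8A1-I (left) and between XEN1-3 and IM8A1-I (right), on the log2(signal + 10.5) scale. Red points lie at least 2-fold from 0 (dotted lines at -1 and 1) and are named: 3 on the left and 5 on the right, with Zfp982 at -2.15 the farthest.

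Zfp genes sit in clusters on the mouse genome, and the array covers them in part. The RefSeq table of GRCm38.p6 lists 416 genes of this name, and all 88 members were found in it. Chromosome 7 carries 19 of the 88 and chromosome 17 carries 16. On chromosome 7, 9 of 15 tested genes had a positive and 6 a negative difference (median 0.04), and on chromosome 17 6 of 14 were positive and 8 negative (median -0.06). In all, 13 groups of neighbours under 200 kb apart held 33 members. In the group of Zfp54, Zfp51 and Zfp53 on chromosome 17, Zfp51 stood at 50.8 units in ES and 41.0 to 52.0 in XEN and Zfp53 at 64.6 and 60.6 to 63.7, almost flat over the 4 arrays, while Zfp54 stood at 14.9 and 24.9 to 53.3. In the group of Zfp398, Zfp282, Zfp777 and Zfp746 on chromosome 6 the differences were 0.57, 1.39, 1.11 and -0.23, none past the threshold. Zfp239, Zfp51, Zfp53, Zfp398 and Zfp746 are named for their positions.

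Promoter windows were found for 72 of the 88 members. In the 250 bases before the start a GC box was present in 52.8% of them, beside 33.0% of 27025 genes, and a CCAAT box in 41.7%, beside 34.5%. The 27025 are all genes with a window, on the array or not. The 6572 array genes with a window were not compared apart, so a trait of array genes cannot be told from one of Zfp genes. A TATA box was present in 8.33%, beside 13.0%, a GATA site in 8.33%, beside 10.2%, and an octamer in 1.39%, beside 1.62%. The median GC content was 57.2%, beside 52.0%, and the median number of CG pairs 14, beside 6. These are matches of letters and not binding sites. The promoters printed above run from 3 CG pairs in Zfp97 to 19 in Zfp637.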

How the data were processed

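The deposited table gives an intensity on each array for 12488 probe sets. The sources used here do not give how the authors summarised and scaled it, and the 2% trimmed means of the deposited intensity values (150.088 to 150.095) were already alike. Chip type and lot were read per the file headers of the run records. Arrays were scaled to a common trimmed mean, 66 control probe sets were left out, 10.5 units (the 25th percentile) were added and log2 was taken, which understates the change of dim genes. Probe sets with at least 1 array at 27.3 units were tested (8582) with limma 3.58.1 in R 4.3.3 (variance trend, 2 residual degrees of freedom, prior of 3.76), two-sided, adjusted over all of them. The fit was also run on simulated arrays with equal, independent noise, in which only brighter probe sets were changed. That run cannot check the effects of the lone ES array, of the shared XEN line or of dim signal. The lone ES array is assumed to vary like the XEN arrays and adds nothing to the measured spread. The p-values set the XEN minus ES difference against the spread among the XEN cultures, of which IM8A1-I and IM8A1-II are the same line. Where a whole group lay under the limit, a fold is a bound. Symbols came from the platform annotation, positions and promoters from RefSeq tables of GRCm38.p6.

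Genes were named by a fixed rule: members past the threshold, the 8 with the highest mean signal, the 5 largest differences in each direction within XEN, role lists, and members whose tested probe sets differ in direction by at least 2-fold (there were 0). Members and lists were chosen with earlier results of these data known. Protein features were planned and are not reported here. Alternatives were other offsets, scalings, filters, probe sets and variance models, each XEN line counted once, and leaving out each XEN array. Figures were drawn with matplotlib 3.10.9. The number of arrays limits the precision.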

Additional observations from a re-analysis of the deposited data

Results flagged for a closer look

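Probe sets annotated to several genes, of which at least 1 is a Zfp gene, lie outside the counts above, and 6 of them carried signal over the background limit. The probe set of Zfp960 and Zfp97 had a signal of 1294 in ES against 235 ± 22.7 in XEN (SD over 3 arrays, -2.41 in log2, limma adjusted p = 0.00880), and that of Zfp808 and Zfp934 had 288 against 97.6 ± 23.1 (-1.49, adjusted p = 0.0477). The probe set of Gm38422 and Zfp64 stood at 89.7 and 30.3 ± 13.0 without passing (adjusted p = 0.0981). The 3 probe sets shared by Zfp706 and Gm10193 had signals of 493, 1183 and 690 in ES against 951 ± 325, 1850 ± 514 and 931 ± 149 in XEN, and none passed. On each of the 3, IM8A1-I and IM8A1-II were above XEN1-3.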

How the results depend on the processing

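Of the Zfp counts for XEN against ES (1 higher, 2 lower), values under other settings were as follows. Without a filter 0 were higher and 1 lower, and with each XEN line counted once 0 and 2. With the median signal as offset 4 were lower, Zfp982, Zfp97, Zfp57 and Zfp105. With values raised to the limit 4 were lower as well, but these were Zfp97, Zfp2, Zfp532 and Zfp90, and Zfp982 was not among them. Zfp2 (39.5 units in ES) and Zfp90 (32.6) lie near the limit, and raising their XEN values to it makes these nearly equal. Zfp2, Zfp532 and Zfp90 are named for this setting only. Leaving out XEN arrays gave 0 to 3 higher and 0 to 4 lower. The median difference of -0.05 was -0.14 with median scaling and -0.17 with a filter at the 60th percentile; it was 0.01 without a filter and by the other probe set choices. Zfp genes 2-fold lower in IM8A1-II than IM8A1-I (2) numbered 4 with the 5th percentile as offset and 0 with the median, and those higher (1) 0 with the median as offset or median scaling and 2 without a filter. Those lower in XEN1-3 than IM8A1-I (3) numbered 5 with the 5th percentile as offset or with values raised to the limit, and those higher (2) 0 with the median as offset and 1 with either other probe set choice. Leaving out XEN arrays kept the median between -0.05 and -0.02. Among genes not past the threshold some signs turned. Zfp36 was at -0.09 with median scaling and -0.05 with quantile normalization, Zfp277 at 0.07 by its lowest-signal probe set and Zfp94 at 0.31 as the mean over its probe sets. With single XEN arrays left out Zfp36 ran from -0.11 to 0.14, Zfp94 from -0.255 to 0.072, Zfp35 from -0.32 to 0.11, Zfp106 from -0.769 to 0.053, Zfp787 from -0.32 to 1.02 and Zfp524 from -0.052 to 0.625. The cause was not tested. For the called genes of the other lists the alternatives were chosen after seeing the data. No paired analysis was possible because ES has 1 array.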
